A study of Mus musculus with 12 samples.

Results

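The Jumonji histone demethylases examined here were Kdm2b, Kdm3a, Kdm3b, Kdm4a, Kdm4b, Kdm4c, Kdm5a, Kdm5b, Kdm6b and Jmjd6. These 10 genes, of the 18193 genes that the array annotation names by exactly 1 symbol, were found through their current symbols and their older Jmjd and Jarid names. They were measured by 26 probe sets of 45037, of which 25 carried 1 gene symbol. A probe set with a mean signal under 100 over the 12 arrays was counted as low and not tested. This left 16 member probe sets, 15 of them with 1 symbol, among 18903 tested probe sets. Every member kept at least 1 tested probe set, and each gene is represented by the one with the highest mean among those with 1 symbol. The threshold lay in a gap among the members' means over the 12 arrays. The lowest tested probe set, Kdm4b (1424044_at), averaged 242.3 and the highest one below the threshold, Kdm3b (1458417_at), averaged 94.96. Kdm4b reached its mean through its hypoxia arrays. It averaged 121.8 in triCH1 normoxia and 122.6 in control normoxia, close to the threshold.

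RNA came from 6 lines of primary fibroblasts of e14.5 mouse embryos, 3 triCH1 lines and 3 control lines, each kept for 6 h in hypoxia (0.1% O2) or in normoxia (21% O2), with 5% CO2 at 37 °C and medium brought to the same oxygen beforehand. The coactivators CBP (gene Crebbp) and p300 (gene Ep300) are histone acetyltransferases whose CH1 domain binds the hypoxia-inducible factors (HIF). In the triCH1 lines CH1 was deleted from 3 of the 4 alleles of both genes and the allele left intact was floxed, which was one of Crebbp in triCH1flox1 and one of Ep300 in both triCH1flox2_1 and triCH1flox2_2. The control lines carried 1 floxed allele and were otherwise wild type at both genes, with Crebbp floxed in line flox1 and Ep300 floxed in lines flox2_1 and flox2_2. All lines, controls included, received an adenovirus that expresses Cre at passage 3 and were then expanded at least 100-fold. Cre excises floxed sequence, so the CBP and p300 that remain in triCH1 lines lack CH1. In control lines the floxed allele was the target too, and the other alleles kept CH1. How complete the excision was in each line was not tested here. There were 4 groups of 3 arrays, triCH1 hypoxia, triCH1 normoxia, control hypoxia and control normoxia. The labels do not say how many embryos stand behind a line, and p-values measure the spread between these lines only.

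JmjC-domain enzymes are dioxygenases that use oxygen, iron(II) and 2-oxoglutarate to remove methyl groups from lysines of histone tails. HIF switches on genes in low oxygen by binding short DNA elements and calling in CBP and p300. KDM3A and KDM4B are textbook HIF targets, and the rise of their transcripts is commonly described as a way for a cell to keep demethylation going when the substrate oxygen is scarce. The members differ in substrate: the Kdm3 enzymes act on lysine H3K9, the Kdm4 enzymes on H3K9 and H3K36, Kdm2b mainly on H3K36, the Kdm5 enzymes on H3K4 and Kdm6b on H3K27, while Jmjd6 is best known as a lysyl hydroxylase of splicing proteins.

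Promoters are shown because the core of the HIF element is short enough to be read directly. Whether HIF acted on these genes was not tested. Kdm4b, which rose in hypoxia, has no promoter here, and Kdm5b and Kdm4c are printed although neither passed in the main fit. RefSeq promoter sequences (GRCm38.p6) were used for 6 members, Jmjd6, Kdm2b, Kdm3a, Kdm4a, Kdm4c and Kdm5b, with 12 start sites in all. The 250 bases before each start were searched on both strands for ACGTG and GCGTG, which appear as CACGT and CACGC when they lie on the other strand, and matches are in capitals. The sequences run 5′ to 3′ on the gene's strand. They are Kdm3a at chr6:71632918-71633167 (minus strand), Jmjd6 at chr11:116843450-116843699 (minus strand), Kdm5b at chr1:134559928-134560177 (plus strand) and Kdm4c at chr4:74251629-74251878 (plus strand), the last shown because it held the most matches while the gene did not pass the test.
Kdm3a: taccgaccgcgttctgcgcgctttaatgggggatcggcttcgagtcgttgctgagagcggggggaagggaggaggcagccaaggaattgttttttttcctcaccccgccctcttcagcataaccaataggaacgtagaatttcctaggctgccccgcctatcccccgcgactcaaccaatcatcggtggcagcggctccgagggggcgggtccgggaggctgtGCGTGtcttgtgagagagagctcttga
Jmjd6: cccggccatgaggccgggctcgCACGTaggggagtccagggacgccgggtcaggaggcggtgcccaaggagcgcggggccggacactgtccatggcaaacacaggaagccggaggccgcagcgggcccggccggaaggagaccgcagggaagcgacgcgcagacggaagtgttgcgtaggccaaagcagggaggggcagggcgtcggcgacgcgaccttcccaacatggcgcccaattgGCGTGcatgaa
Kdm5b: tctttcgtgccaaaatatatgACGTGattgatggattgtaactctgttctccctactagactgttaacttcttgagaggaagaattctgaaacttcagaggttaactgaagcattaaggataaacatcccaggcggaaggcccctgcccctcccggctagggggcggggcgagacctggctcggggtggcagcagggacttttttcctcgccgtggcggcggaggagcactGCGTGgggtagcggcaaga
Kdm4c: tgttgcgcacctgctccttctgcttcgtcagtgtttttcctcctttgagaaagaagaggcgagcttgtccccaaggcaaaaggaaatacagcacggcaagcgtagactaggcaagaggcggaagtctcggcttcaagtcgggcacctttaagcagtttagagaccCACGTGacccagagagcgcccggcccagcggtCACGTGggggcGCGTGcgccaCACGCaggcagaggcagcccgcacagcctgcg
Kdm3a had a single match, 27 bases before this start, and the windows of its other 2 annotated starts had 0. Jmjd6 had matches 228 and 11 bases before its start, and Kdm5b had matches 229 and 19 bases before its start. Kdm4c had 6 matches between 85 and 32 bases before its start, among them both strands of the palindrome CACGTG at 2 places, which is also the E-box motif. At least 1 match was present in 8 of the 12 member promoters and in 38.6% of all 32851 promoters of the same length. Kdm2b, which did not pass in any comparison, gave more of the 8 than any other gene. Its windows at chr5:122900351-122900600 and chr5:122900368-122900617 overlap and hold the same 2 matches. The 8 promoters covered 5 of the 6 genes, a count that cannot be set beside the share per promoter, because several genes had more than 1 start. With ACGTG alone, 3 member promoters matched, against 16.6% of all. A match is a string of letters in this window and says nothing by itself about binding.

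The arrays were alike in scale, with median signals of 57.2 to 76.1 in the deposited units (linear intensities scaled to a target of 500) and scale factors of 2.57 to 4.28. Precision is limited by having 3 arrays in each group. As a check of the labels, Crebbp (1435224_at) read 698.7 to 882.2 on the 4 arrays of lines with a floxed Crebbp allele and 922.2 to 1852.4 on the other 8, while Ep300 (1434765_at) read 206.7 to 539.5 on the 8 arrays of lines with a floxed Ep300 allele and 412.3 to 836.4 on the other 4. All 11 fibroblast markers averaged 100 or more over the 12 arrays, and none passed in any comparison. They were not uniform between line types. Dcn averaged 413.7 in triCH1 hypoxia and 342 in triCH1 normoxia, but 65.5 in control hypoxia and 94.0 in control normoxia. Pdgfra averaged 59.8 in control hypoxia. Thy1 averaged 2738 in triCH1 hypoxia and 5764 in control hypoxia, and Lum 1799 and 279. All 6 endothelial markers lay under 100 on every array. So did the macrophage markers Ptprc and Itgam and the epithelial markers Cdh1 and Krt14. The skeletal muscle markers Myog, Actn2 and Myh3 and the neural markers Nefl and Gfap did too. Of 7 macrophage markers 4 averaged 100 or more (Csf1r, Cd68, Cd14 and Lyz2), as did 1 of 6 muscle markers (Des) and 2 of 5 neural markers (Tubb3 and Sox2), and none of these passed in any comparison. The summed macrophage signal was 601.3 to 680.8 in triCH1 hypoxia, 621.8 to 817 in triCH1 normoxia, 542.7 to 654.6 in control hypoxia and 671.4 to 842.9 in control normoxia. Of 7 epithelial markers 3 were measured (Epcam, Krt18 and Krt19), and the list's summed signal was 3720 to 3891 in triCH1 hypoxia, 1446 to 2622 in triCH1 normoxia, 6023 to 7722 in control hypoxia and 1429 to 2390 in control normoxia. Krt19 had the highest signal in that list, averaging 3285 in triCH1 hypoxia, 1373 in triCH1 normoxia, 6310 in control hypoxia and 1502 in control normoxia, and rose in hypoxia in both line types (log2 change 1.27 ± 0.24 in triCH1 lines, adjusted p = 0.0227, and 2.10 ± 0.24 in control lines, adjusted p = 1.91e-04, limma). The Krt19 call in control lines held in 29 of 29 alternatives and that in triCH1 lines in 20 of 29, being lost, among others, without any 1 of the 3 triCH1 lines (adjusted p = 0.104 to 0.309). Epcam and Krt18 did not pass, and the part of this change in the members' results was not tested.

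Hypoxia raised 3 of the 10 member transcripts, Kdm3a, Kdm4b and Jmjd6, both in triCH1 and in control lines, while none of the 10 passed as lower. These calls are Benjamini-Hochberg adjusted p-values under 0.05 over all 18903 probe sets in limma, on log2(signal + 20). In triCH1 lines 0.63% of all tested probe sets were called higher and 0.00529% lower. In control lines 0.799% were called higher and 0.0317% lower, and in the mean response over the 6 lines 1.42% and 0.328%. The median log2 response of the 10 representative probe sets was 0.48 in triCH1 lines and 0.21 in control lines, beside medians of −0.02 and −0.04 over all tested probe sets. In whole-culture RNA, more transcript per cell and more cells that express it cannot be told apart.

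**Figure D1:**
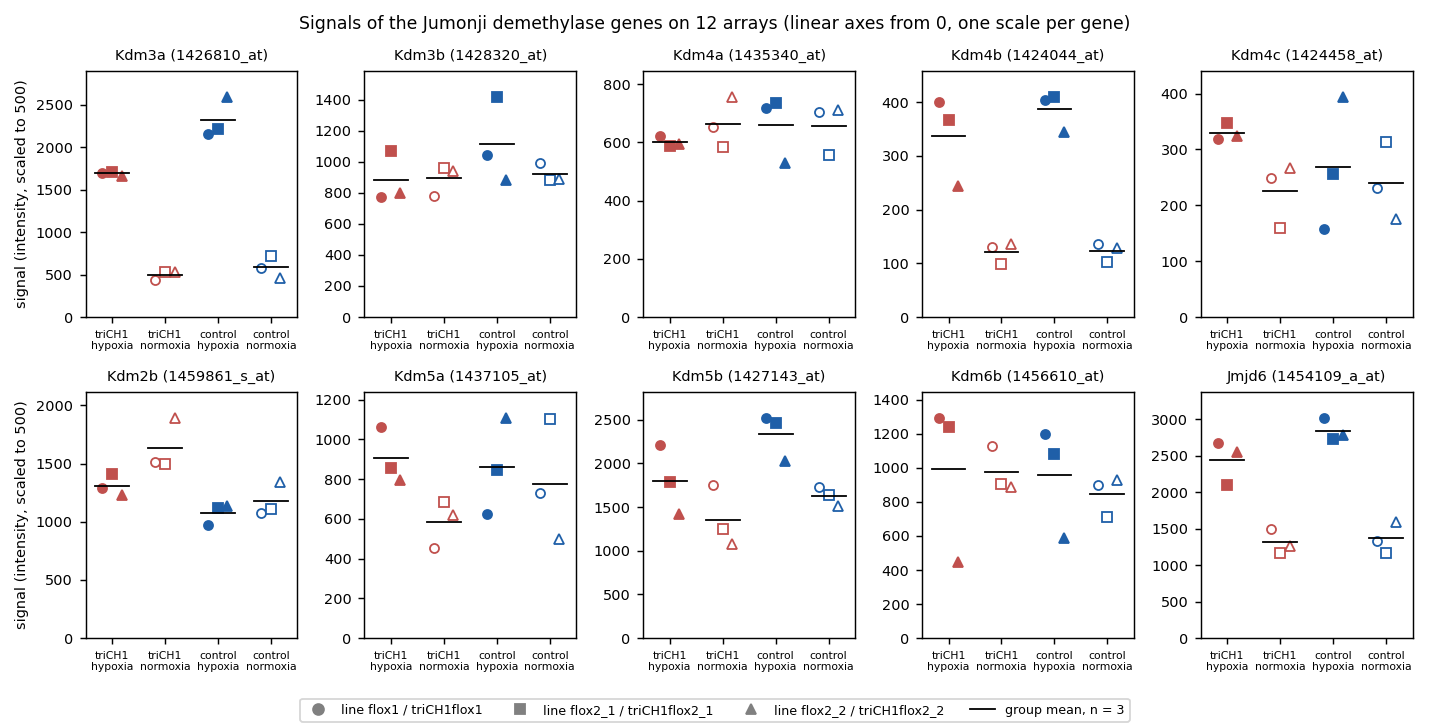
Signal (linear intensity scaled to 500, axes from 0 and set per gene) of the representative probe set of each member on the 12 arrays, with triCH1 lines in red, control lines in blue, hypoxia filled, normoxia open, the marker shape giving the line and the bar the mean of 3 arrays. Kdm3a, Kdm4b and Jmjd6 have all 6 hypoxia arrays above all 6 normoxia arrays, and in the other 7 genes the hypoxia and normoxia arrays overlap.

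Kdm3a, the H3K9 demethylase that removes mono- and dimethyl marks, gave the highest response of the members. Its only probe set (1426810_at) read 1697.3, 1714.7 and 1665.4 in triCH1 hypoxia and 440.4, 532.9 and 526.1 in triCH1 normoxia, in lines triCH1flox1, triCH1flox2_1 and triCH1flox2_2. In control hypoxia it read 2160.1, 2220.1 and 2593.5, and in control normoxia 574.2, 717.3 and 464.1, in lines flox1, flox2_1 and flox2_2. All 6 hypoxia arrays stood above all 6 normoxia arrays, and within hypoxia the 3 triCH1 arrays lay close to each other and below the 3 control arrays. Of all tested probe sets, 5.64% had every hypoxia array above every normoxia array in triCH1 lines and 4.66% in control lines. The log2 response was 1.72 ± 0.18 in triCH1 lines (adjusted p = 1.05e-04, limma) and 1.97 ± 0.18 in control lines (adjusted p = 2.04e-05), 3.39-fold and 3.97-fold by group means, higher in 6 of 6 lines. The mean response, 1.85 ± 0.12 (adjusted p = 5.48e-07), stayed between 1.71 and 1.94 under 29 alternative settings and passed in each of them.

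Kdm3b, the close paralog with the same substrate, did not pass in any comparison. Its representative probe set (1428320_at) averaged 879 ± 162 in triCH1 hypoxia, 893 ± 97.1 in triCH1 normoxia, 1114 ± 274 in control hypoxia and 923 ± 61.4 in control normoxia (SD, n = 3 each). The mean log2 response was 0.10 ± 0.14, with 3 lines higher and 3 lower. The 95% interval of that response, −0.19 to 0.40, lies below the interval of Kdm3a, 1.58 to 2.11.

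Kdm4b, which removes trimethyl marks from H3K9 and also acts on H3K36, had the second largest response. Probe set 1424044_at read 401.3, 367.8 and 245 in triCH1 hypoxia and 129.6, 99.5 and 136.3 in triCH1 normoxia. In control lines it read 405, 409.8 and 345.4 in hypoxia and 135.3, 103.4 and 129.2 in normoxia. Each hypoxia array exceeded every normoxia array, and the lowest hypoxia value, in triCH1flox2_2, went with the smallest response of the 6 lines (0.76, against 1.29 to 1.80 in the other 5). The log2 response was 1.32 ± 0.23 in triCH1 lines (adjusted p = 0.0142, limma) and 1.51 ± 0.23 in control lines (adjusted p = 3.31e-03), 2.78-fold and 3.15-fold by group means, and the mean over both was 1.42 ± 0.17 (adjusted p = 1.49e-04).

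The Kdm4b call was firmer over 6 lines than over 3. The mean response passed under all 29 alternatives, with values of 1.05 to 1.56. The call in triCH1 lines held in 22 of 30 alternatives and was lost without line triCH1flox1 (adjusted p = 0.160) or triCH1flox2_1 (0.336), without the hypoxia array of either of these lines (0.0987 and 0.0944) and without the normoxia array of triCH1flox2_1 (0.0826). The call in control lines held in 27 of 30 and was lost without line flox1 (0.0664) or flox2_1 (0.103).

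The other measured Kdm4 enzymes did not pass in any comparison. Kdm4a (1435340_at) averaged 601 ± 17.8 in triCH1 hypoxia, 664 ± 86.8 in triCH1 normoxia, 661 ± 115 in control hypoxia and 658 ± 86.8 in control normoxia (SD, n = 3 each). Its mean log2 response was −0.06 ± 0.13 (adjusted p = 0.918, limma). Kdm4c (1424458_at) read 318.8 to 347.4 in triCH1 hypoxia and 160 to 266.3 in triCH1 normoxia, without overlap, and 157.2 to 393.8 in control hypoxia and 175.9 to 312.9 in control normoxia, with overlap. Its log2 response was 0.54 ± 0.31 in triCH1 lines (adjusted p = 0.872) and 0.10 ± 0.31 in control lines (adjusted p = 1.00), with line values from −0.50 in flox1 to 1.08 in flox2_2.

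**Figure D2:**
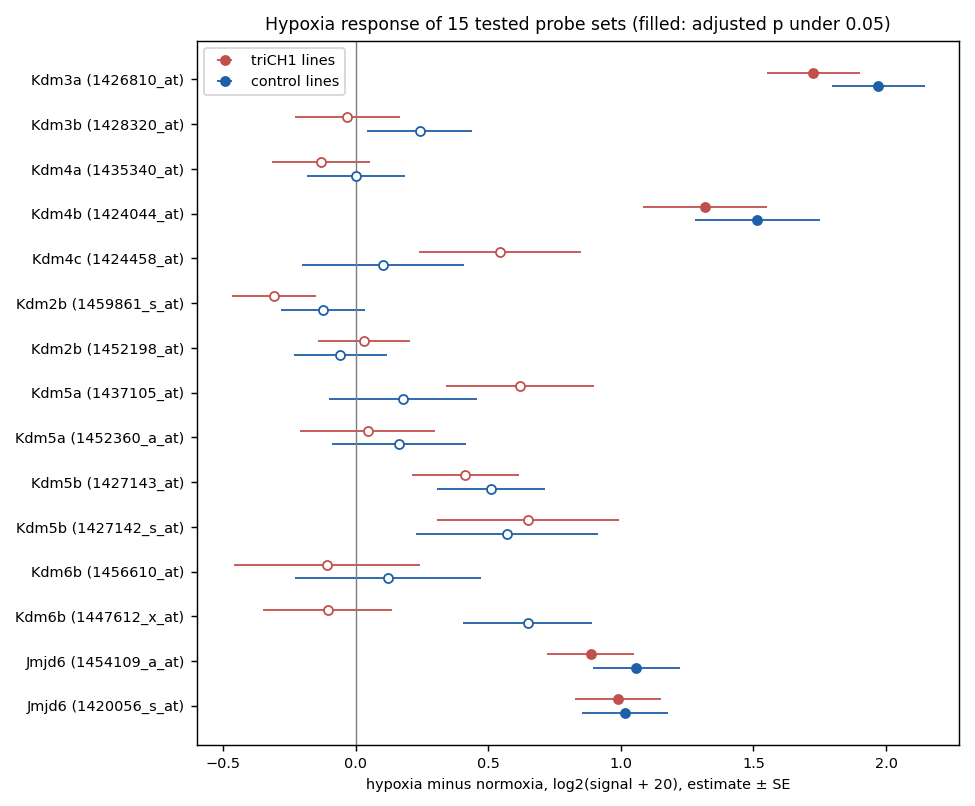
Log2 response to hypoxia, hypoxia minus normoxia of log2(signal + 20), of the 15 tested member probe sets with 1 symbol in triCH1 lines (red) and control lines (blue), with bars of 1 SE from limma and filled points at an adjusted p under 0.05. The filled points belong to Kdm3a, Kdm4b and both Jmjd6 probe sets, at 0.89 to 1.97, and the points of the 2 line types lie within their error bars of each other for most probe sets.

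Kdm2b, the CpG-island-binding enzyme that acts on H3K36 and helps recruit a Polycomb complex, did not pass in any comparison, yet its triCH1 and control arrays did not overlap. Probe set 1459861_s_at read 1290.1, 1408.4 and 1230.7 in triCH1 hypoxia against 973.7, 1116.8 and 1133.1 in control hypoxia, and 1512.1, 1496.6 and 1889.7 in triCH1 normoxia against 1074.3, 1110 and 1343.7 in control normoxia. Probe set 1452198_at read 814 to 993.3 in triCH1 hypoxia against 601.6 to 729 in control hypoxia, and 804.6 to 983.1 in triCH1 normoxia against 580.1 to 791.1 in control normoxia. With both probe sets and in both oxygen conditions, the lowest triCH1 array was above the highest control array. The log2 difference, triCH1 minus control, was 0.47 ± 0.16 in normoxia (adjusted p = 0.480, limma) and 0.28 ± 0.16 in hypoxia (adjusted p = 0.690) for 1459861_s_at. For 1452198_at it was 0.33 ± 0.17 in normoxia (adjusted p = 0.735) and 0.42 ± 0.17 in hypoxia (adjusted p = 0.581), so none of the 4 values passed. Over all tested probe sets, triCH1 arrays stood above control arrays without overlap in 6.18% in normoxia and 7.1% in hypoxia. The response of Kdm2b to hypoxia did not pass either, at −0.22 ± 0.11 (adjusted p = 0.522) and −0.01 ± 0.12 (adjusted p = 0.987) for the mean over lines. With 1459861_s_at every triCH1 hypoxia array lay below every triCH1 normoxia array (−0.31 ± 0.16, adjusted p = 0.852, limma), and 5 of the 6 lines were lower in hypoxia. With 1452198_at 3 lines were lower and 3 higher. The share of all probe sets with that lower pattern is not given here.

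The H3K4 demethylases gave small responses. Kdm5b, which removes di- and trimethyl marks from H3K4, read 2205.2, 1786.4 and 1416.5 in triCH1 hypoxia and 1747.2, 1245.6 and 1072.9 in triCH1 normoxia with probe set 1427143_at. In control lines it read 2516.6, 2459.4 and 2027.9 in hypoxia and 1726.7, 1639.6 and 1516.6 in normoxia. The control groups did not overlap, the triCH1 groups did, and within every line hypoxia was above normoxia, by 0.33 to 0.58 on the log2 scale. The mean response was 0.46 ± 0.14 (adjusted p = 0.166, limma), and with the lines as blocks, which compares the oxygen conditions within each line, the adjusted p was 0.0156. The second probe set, 1427142_s_at, gave 0.61 ± 0.24 (adjusted p = 0.338, and 0.0354 with lines as blocks), also higher in 6 of 6 lines, with line values from 0.11 in flox1 to 0.94 in flox2_1.

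Kdm5a, which has the same substrate, did not pass with either probe set. Probe set 1437105_at read 794.1 to 1062.6 in triCH1 hypoxia and 452.1 to 684.6 in triCH1 normoxia, without overlap, and 625.9 to 1107.5 in control hypoxia and 501.3 to 1101.7 in control normoxia, where the groups overlapped. The log2 response was 0.62 ± 0.28 in triCH1 lines (adjusted p = 0.781, limma) and 0.18 ± 0.28 in control lines (adjusted p = 1.00). Lines flox1 and flox2_1 were lower in hypoxia and the other 4 lines higher. Probe set 1452360_a_at gave 0.04 ± 0.25 in triCH1 lines and 0.16 ± 0.25 in control lines.

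Kdm6b, the H3K27 demethylase also known as Jmjd3, did not pass in any comparison, and the direction of its response differed between lines. Probe set 1456610_at read 1292, 1237.4 and 447 in triCH1 hypoxia and 1130.3, 902.6 and 889.9 in triCH1 normoxia, and 1201, 1080.3 and 590.2 in control hypoxia and 896.5, 712.2 and 929.1 in control normoxia. The lowest hypoxia arrays were those of triCH1flox2_2 and flox2_2, whose log2 responses were −0.96 and −0.64, while the other 4 lines gave 0.19 to 0.59. The mean response was 0.01 ± 0.25 (adjusted p = 0.997, limma). Probe set 1447612_x_at read 250.8 to 428.5 in triCH1 hypoxia and 304.2 to 448.1 in triCH1 normoxia, with overlap, and 339.7 to 454.5 in control hypoxia and 218.6 to 322.7 in control normoxia, without overlap. Here the lower values in hypoxia were in triCH1flox1 (−0.20) and triCH1flox2_2 (−0.26), and flox2_2 was at 0.07. Its response was −0.11 ± 0.24 in triCH1 lines and 0.65 ± 0.24 in control lines (adjusted p = 0.589), a difference of −0.76 ± 0.34 (adjusted p = 1.00). Another tested probe set, 1440346_at, is annotated to Kdm6b and to 1700064E03Rik, which RefSeq lists as a synonym of Kdm6b. Because it carries more than 1 symbol it was kept out of the counts, although its mean signal (1209.5) was the highest for Kdm6b. Its response was −0.20 ± 0.30 in triCH1 lines and 0.31 ± 0.30 in control lines, and neither passed. This probe set also gave lower values in hypoxia in triCH1flox2_2 and flox2_2 (−0.71 and −0.10) and in triCH1flox1 (−0.07).

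Jmjd6 responded by about the same amount with both of its tested probe sets. Probe set 1454109_a_at read 2675.5, 2101.3 and 2548.2 in triCH1 hypoxia and 1502, 1173.7 and 1260.1 in triCH1 normoxia. In control lines it read 3016.4, 2733.6 and 2789.7 in hypoxia and 1337.5, 1163.6 and 1598.1 in normoxia. Hypoxia was above normoxia on every array, and the 3 triCH1 hypoxia arrays lay below the 3 control hypoxia arrays. The log2 response was 0.89 ± 0.16 in triCH1 lines (adjusted p = 0.0209, limma) and 1.06 ± 0.16 in control lines (adjusted p = 3.45e-03), 1.86-fold and 2.08-fold by group means. The mean over both was 0.97 ± 0.12 (adjusted p = 1.90e-04) and the line values ran from 0.80 to 1.22. Probe set 1420056_s_at gave 0.99 ± 0.16 in triCH1 lines (adjusted p = 7.17e-03) and 1.01 ± 0.16 in control lines (adjusted p = 4.66e-03). With this probe set the line types overlapped in hypoxia, at 1667.9 to 2016.7 in triCH1 lines and 1929.8 to 2238 in control lines.

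The mean response of Jmjd6 passed under all 29 alternatives with 1454109_a_at (0.92 to 1.04) and all 28 with 1420056_s_at. The call of 1454109_a_at in triCH1 lines held in 19 of 30 alternatives. It was lost, with log2 values of 0.81 to 0.92, without line triCH1flox1 (adjusted p = 0.0774), triCH1flox2_1 (0.133), triCH1flox2_2 (0.367) or flox1 (0.0730), without the normoxia array of triCH1flox2_1 (0.118) or triCH1flox2_2 (0.106), and without the hypoxia array of triCH1flox1 (0.115) or triCH1flox2_2 (0.111). The call in control lines was lost without line flox1 (0.119) or flox2_1 (0.0847). The second probe set lost its call without line triCH1flox1 (0.0564), triCH1flox2_1 (0.0571) or triCH1flox2_2 (0.132) in triCH1 lines, and without line flox1 (0.0736), flox2_1 (0.125) or flox2_2 (0.0506) in control lines.

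**Figure D3:**
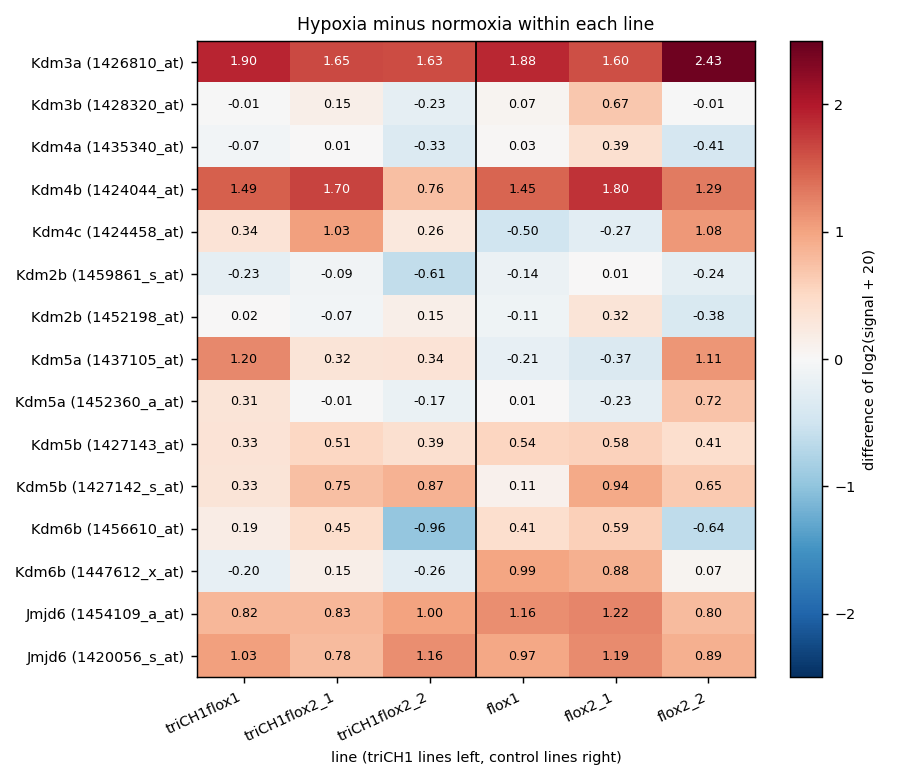
Log2 response to hypoxia within each line, hypoxia minus normoxia of log2(signal + 20), for the 15 tested member probe sets, with triCH1 lines left of the black line and control lines right of it, and red for higher in hypoxia. Kdm3a, Kdm4b, both Jmjd6 and both Kdm5b probe sets are red in all 6 lines, whereas Kdm6b (1456610_at) is blue in triCH1flox2_2 and flox2_2.

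Within the 6 lines, 6 of the 15 tested probe sets were higher in hypoxia in every line and 0 were lower in every line, where 5.14% and 7.23% of all tested probe sets were. The 6 were those of Kdm3a, Kdm4b, Jmjd6 and Kdm5b. The 4 probe sets of Kdm3a, Kdm4b and Jmjd6 passed in the mean response, and all 6 passed with lines as blocks, a fit in which 2.41% of all probe sets were called higher and 1.26% lower. Probe sets of 1 gene moved together to different degrees. Over the 12 arrays Pearson's r of the log2 signals was 0.96 for Jmjd6, 0.74 for Kdm5a, 0.67 to 0.87 among the 3 of Kdm6b, 0.61 for Kdm2b and 0.60 for Kdm5b, where arrays share the split by oxygen.

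The remaining 10 probe sets were low, with means of 13.9 to 94.96. They belonged to Kdm5a (4), Kdm5b (2), Kdm3b, Kdm4a, Kdm6b and Jmjd6 (1 each). The low Jmjd6 probe set 1420057_at read 30.5 to 91.1 in triCH1 hypoxia, 6.6 to 9.1 in triCH1 normoxia, 18.9 to 72.7 in control hypoxia and 6.8 to 20.9 in control normoxia. It was higher in hypoxia in 6 of 6 lines, as the brighter Jmjd6 probe sets were, and did not pass when the filter was dropped (mean log2 response 1.30, adjusted p = 0.0747, limma).

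**Figure D4:**
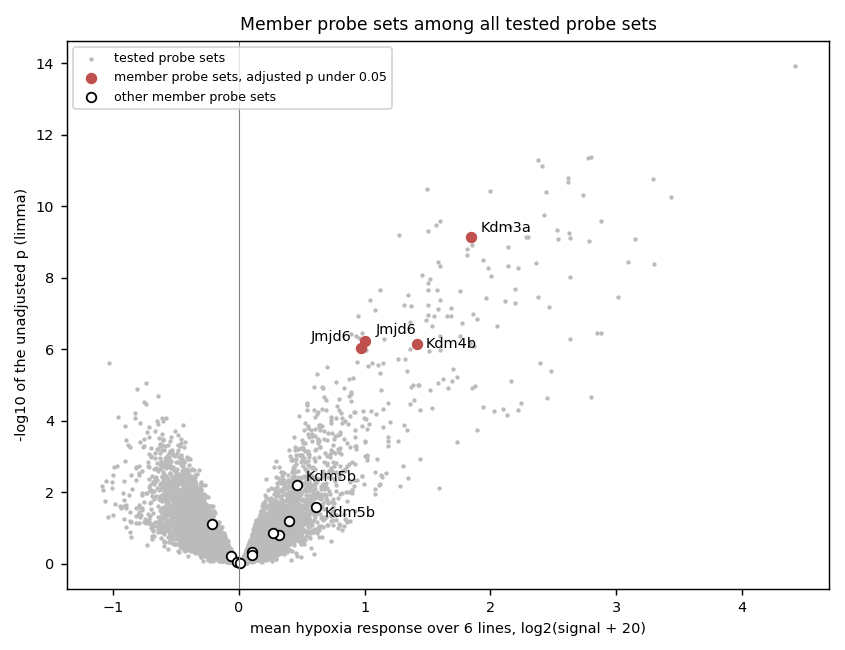
Mean log2 response to hypoxia over the 6 lines (horizontal axis) against −log10 of the unadjusted limma p (vertical axis) for all 18903 tested probe sets (grey), with member probe sets as red points where the adjusted p is under 0.05 and as open circles elsewhere. Kdm3a, Kdm4b and both Jmjd6 probe sets lie on the right arm at 0.97 to 1.85, Kdm5b lies at 0.46 and 0.61, and the other members lie between −0.22 and 0.40.

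Whether these responses needed CH1 was asked through the difference between the line types. None of the 10 representative probe sets passed (unadjusted p of 0.283 or more), and over all 18903 probe sets 0 (0%) passed in either direction in limma, with 131 at an unadjusted p under 0.05. That is fewer than this threshold would give by chance over all of them, so the test was conservative. The fit does not pair both arrays of a line, and with lines as blocks none of the members passed either. The point estimates were lower in triCH1 lines for 8 of the 10 members. The median difference was −0.18 for the 10 members and 0.01 over all tested probe sets, whose share of negative differences is not given here. Among the 8, Kdm4a, Kdm4b, Kdm5b and Kdm6b changed sign in some omissions of 1 array or 1 line. For Kdm3a the log2 difference, triCH1 minus control, was −0.25 ± 0.25, with a 95% interval of −0.78 to 0.29. For Kdm4b it was −0.20 ± 0.33 (−0.91 to 0.51), and for Jmjd6 −0.17 ± 0.23 (−0.67 to 0.33) with 1454109_a_at and −0.02 ± 0.23 (−0.52 to 0.47) with 1420056_s_at. The responses in control lines, which are part of these differences, were 1.97 ± 0.18, 1.51 ± 0.23, 1.06 ± 0.16 and 1.01 ± 0.16 for the 4 probe sets. An equal response in both line types is within the error of this unpaired fit. So is a response in triCH1 lines that is lower by the lower ends of these intervals.

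Between line types at 1 oxygen level, none of the members passed either. In hypoxia Kdm3a was −0.45 ± 0.18 (adjusted p = 0.545, limma) and Jmjd6 −0.23 ± 0.16 (adjusted p = 0.745) in triCH1 relative to control lines. These were the 2 representative probe sets whose 3 triCH1 arrays all lay below the 3 control arrays, which 6.05% of all tested probe sets did, and Kdm2b was the 1 whose triCH1 arrays all lay above. With the second Jmjd6 probe set, 1420056_s_at, the line types overlapped in hypoxia. The called share of all probe sets was 0.00529% higher and 0.0688% lower in hypoxia, and 0% higher and 0.00529% lower in normoxia. In normoxia Kdm3a differed by −0.20 ± 0.18, Kdm4b by −0.01 ± 0.23 and Jmjd6 by −0.05 ± 0.16, all with overlapping groups.

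Related genes were counted from lists of the machinery around these enzymes. Of 21 other JmjC genes, 20 were on the array and 18 were measured, and in the mean response to hypoxia 0 rose and 0 fell (median log2 response −0.17). Jarid2 became the 1 call without line triCH1flox1 (adjusted p = 0.0277) or its normoxia array alone (0.0229). The 3 with the smallest p were Jarid2, a catalytically inactive JmjC partner of Polycomb complex PRC2, at 0.70 ± 0.18 (adjusted p = 0.0798, limma), Hspbap1 at −0.56 ± 0.19 (0.231) and Riox1, a ribosomal oxygenase, at −0.38 ± 0.14 (0.270). The enzymes that write the marks gave 0 calls as well, among 6 H3K9 methyltransferases (median −0.23), 13 genes of H3K4 methyltransferases and their subunits (−0.16), 7 genes of PRC2 (0.09) and 4 H3K36 methyltransferases (0.01). In each of these lists the members with the smallest p were Ehmt1, Setdb1 and Suv39h2, then Rbbp5, Kmt2d and Setd1b, then Suz12, Phf1 and Eed, then Nsd3, Nsd2 and Nsd1, with adjusted p-values of 0.357 or more. Of the TET DNA dioxygenases, Tet2 alone was measured (0.50 ± 0.24, adjusted p = 0.466).

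Among the flavin-dependent demethylases and their CoREST partners 5 genes had a mean signal of 100 or more. Rcor2, a CoREST scaffold of the demethylase Kdm1a, had normoxia means of 71.8 in triCH1 lines and 26.3 in control lines and reached it through its hypoxia arrays, so its values are described and no test of it is given. It read 210.6, 232.1 and 275.4 in triCH1 hypoxia and 4.2, 113.6 and 97.5 in triCH1 normoxia. In control lines it read 247.7, 267 and 260.2 in hypoxia and 8.2, 35.1 and 35.5 in normoxia. Every hypoxia array was above 200 and above every normoxia array. Of the other 4 genes, Kdm1a, Kdm1b, Rcor1 and Rcor3, none passed. Rcor1 gave 0.56 ± 0.15 (adjusted p = 0.111, limma), and passed with lines as blocks (0.0287) and without the normoxia array of flox2_1 (0.0330), while Kdm1b gave −0.19 ± 0.21.

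The HIF prolyl hydroxylases, which share the oxygen, iron and 2-oxoglutarate chemistry of the JmjC enzymes and mark HIF for destruction, had 2 calls of 3. Egln1 rose by 2.00 ± 0.11 (adjusted p = 6.85e-08, limma) and Egln3 by 2.88 ± 0.18 (3.08e-07), and Egln2 did not pass (0.05 ± 0.11). In hypoxia Egln3 read 1780.1, 1028.1 and 1264.5 in triCH1 lines against 5387.8, 6799.3 and 5747.4 in control lines, a log2 difference of −2.15 ± 0.25 (adjusted p = 6.77e-03), while Egln1 differed by −0.03 ± 0.15. This call of Egln3 held in 22 of 29 alternatives, with values of −2.43 to −1.97, and was lost without any 1 control line or line triCH1flox2_2 (adjusted p = 0.0638 to 0.113).

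**Figure D5:**
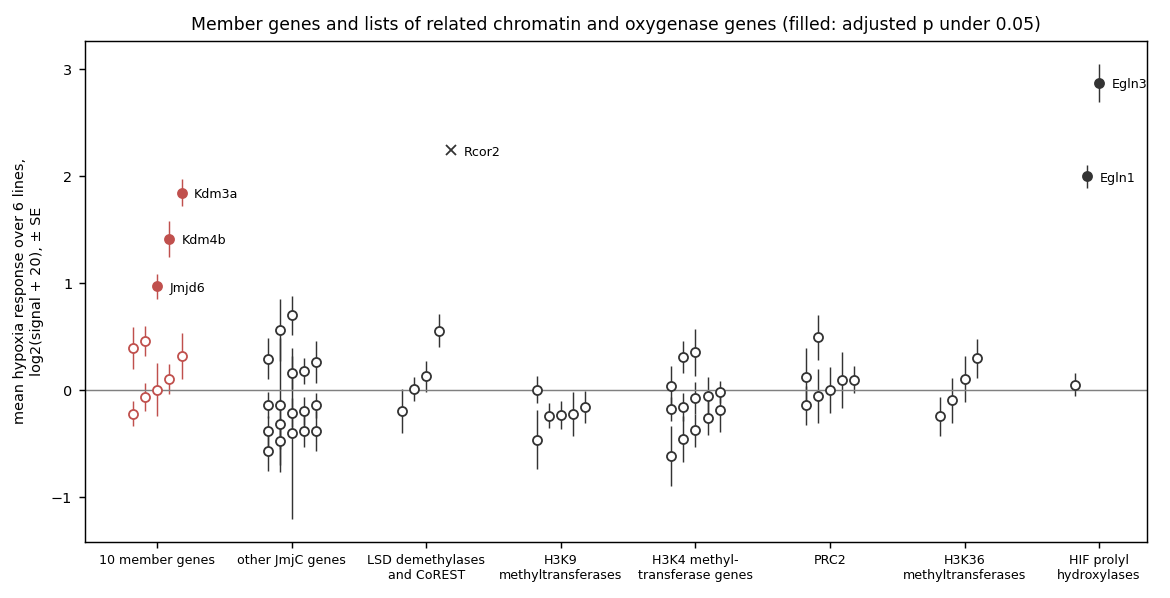
Mean log2 response to hypoxia over the 6 lines, with bars of 1 SE from limma, for the 10 members (red) and for lists of related chromatin and oxygenase genes (black), 1 point per gene, filled where the adjusted p is under 0.05. The filled points are Kdm3a, Kdm4b and Jmjd6 at 0.97 to 1.85, Egln1 at 2.00 and Egln3 at 2.88, and the cross is Rcor2, whose normoxia means were under 100 and which is shown without a test.

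The genes whose pattern over the 12 arrays was most like that of each responding member were found by Pearson's r of the log2 signals. For Kdm3a they were Ndrg1 (r = 0.986), the mitophagy receptor Bnip3 (0.982) and the lipid droplet protein gene Hilpda (0.975). For Kdm4b they were the hexokinase Hk1 (0.985), the phosphofructokinase Pfkl (0.981) and the lactate exporter Slc16a3 (0.979), and for Jmjd6 the metallothionein Mt1 (0.989), the phosphoglycerate mutase Pgam1 (0.981) and the glucose transporter Slc2a1 (0.975). All arrays share the split into 2 oxygen conditions. After removal of the 4 group means r over the same 12 arrays was 0.49, 0.53 and −0.25 for Kdm3a, 0.91, 0.74 and 0.65 for Kdm4b, and 0.93, 0.95 and 0.72 for Jmjd6, in the same order of genes.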

How the data were processed

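Expression was measured in 12 RNA samples with 1 Affymetrix Mouse430_2 array each. The deposited values are probe set intensities, linear and scaled to a target of 500, which the authors computed with the Statistical algorithm, per the labels. The software version is not given in the sources used here. Of the 45101 probe sets in the table, 64 manufacturer controls were left out, and the array's annotation table gave the gene symbols.

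Intensities were analysed as log2(signal + 20) without further normalization, for probe sets that averaged 100 or more. A linear model with a mean for each group, which left 8 residual degrees of freedom, was fitted in limma 3.58.1 (lmFit, then eBayes with trended variance) under R 4.3.3. From it came 6 contrasts: the response to hypoxia in triCH1 lines and in control lines, the difference and the mean of both, and triCH1 against control at each oxygen level. Tests were two-sided, with Benjamini-Hochberg adjustment within a contrast. The error given with a log2 change is its standard error, that given with a signal is a standard deviation, and intervals are limma's 95% intervals. The script was tested on simulated data.

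Both arrays of a line were taken as a pair because they share the line's name. After removal of group means their correlation was 0.54, 0.58 and 0.35 in triCH1flox1, triCH1flox2_1 and triCH1flox2_2, and 0.47, 0.28 and −0.02 in flox1, flox2_1 and flox2_2. The settings tried instead were a pseudocount of 1 or 100, a filter at 200 or none, quantile normalization, median centring, no variance trend, a robust fit, lines as replicate block, the arrays of a contrast alone, Ep300-floxed lines only, 1 value per gene, and omission of each array and line.

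The members, the lists and the contrasts were chosen with earlier results of these data known. All members are named. Of the lists, each called gene and up to 3 with the smallest p are named, and for each member called in the mean response the 3 genes with the highest correlation. Promoter sequences are RefSeq's for GRCm38.p6; those of Kdm3b, Kdm4b, Kdm5a and Kdm6b were not used here.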

Additional observations from a re-analysis of the deposited data

Results flagged for a closer look

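Of the 15 tested member probe sets, 1 had a line whose response to hypoxia stood apart from those of the other 5 lines. The Kdm3a response was 2.43 on the log2 scale in control line flox2_2, against 1.60 to 1.90 in the other 5 lines, a gap larger than Dixon's critical value allows for 6 lines. In flox2_2 Kdm3a had both the highest hypoxia signal of the control lines (2593.5) and the lowest normoxia signal (464.1). Without flox2_2 the response in control lines was still called. Chance flags about 1 in 20 such groups.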

How the results depend on the processing

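All responses of Kdm3a kept their direction and their calls under every alternative, and so did the mean responses of Kdm4b and Jmjd6. The count of members called higher was 3 in triCH1 lines, and 1 with the arrays of the contrast alone and with Ep300-floxed lines only. It was 3 in control lines, and 1 with Ep300-floxed lines only. When 1 array or 1 line was left out it was 1 to 3 in triCH1 lines, 1 to 3 in control lines and 3 to 3 in the mean response. It was 1 in triCH1 lines without triCH1flox1, without triCH1flox2_1, without the normoxia array of triCH1flox2_1 and without the hypoxia array of triCH1flox1, and 1 in control lines without flox1 or flox2_1. The Ep300-floxed setting uses 8 arrays, and the contrast alone 6. Calls of Kdm4b in triCH1 lines were also lost with no filter (adjusted p = 0.0526, limma), with the contrast alone (0.125) and with Ep300-floxed lines only (0.355, and 0.0768 in control lines). Those of Jmjd6 were lost with median centring (0.0990 with 1454109_a_at and 0.0551 with 1420056_s_at), the contrast alone (0.126 and 0.0834) and Ep300-floxed lines only (0.223 and 0.140, and 0.0999 and 0.0705 in control lines). For centring the cause was not tested. No scaling moved the median of all probe sets by more than 0.1 on the log2 scale.

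The replicate block, which pairs both arrays of a line, brought the mean response of Kdm5b past the threshold (adjusted p = 0.0156 and 0.0354) and changed no other call of a member. It raised the called share of all probe sets in the mean response to 2.41% higher and 1.26% lower, against 1.42% and 0.328% without it. It also brought Rcor1 past the threshold.

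Values that changed direction all belonged to changes that were not called. With Ep300-floxed lines only, triCH1 against control in normoxia was 0.094 for Kdm3b and 0.010 for Kdm4b. The response in control lines was −0.012 for Kdm4a and −0.025 for Kdm6b, and that in triCH1 lines −0.090 for Kdm5a (1452360_a_at). The mean response of Kdm6b was −0.14. Kdm5a had a difference in response of −0.043 and was −0.23 in triCH1 against control in hypoxia. The mean response of Kdm2b (1452198_at) was 0.0134 after quantile normalization and 0.00388 with Ep300-floxed lines only. Kdm4a in triCH1 against control in normoxia was −2.16e-06 after quantile normalization and −0.00454 after centring. Direction also changed in the following ranges over omission of 1 array or 1 line, named by gene for the representative probe set. For the response in triCH1 lines, it was −0.040 to 0.11 for Kdm2b (1452198_at), −0.17 to 0.067 for Kdm3b, −0.092 to 0.18 for Kdm5a (1452360_a_at), −0.25 to 0.11 for Kdm6b (1447612_x_at) and −0.39 to 0.38 for Kdm6b. For the response in control lines, it was −0.25 to 0.10 for Kdm2b (1452198_at), −0.19 to 0.21 for Kdm4a, −0.39 to 0.41 for Kdm4c, −0.29 to 0.46 for Kdm5a, −0.11 to 0.37 for Kdm5a (1452360_a_at) and −0.11 to 0.50 for Kdm6b. For the difference in response, it was −0.14 to 0.079 for Jmjd6 (1420056_s_at), −0.073 to 0.28 for Kdm2b (1452198_at), −0.34 to 0.063 for Kdm4a, −0.39 to 0.081 for Kdm4b, −0.33 to 0.16 for Kdm5a (1452360_a_at), −0.35 to 0.37 for Kdm5b (1427142_s_at), −0.25 to 0.099 for Kdm5b and −0.61 to 0.26 for Kdm6b. For the mean response, it was −0.11 to 0.068 for Kdm2b (1452198_at), −0.0019 to 0.18 for Kdm3b, −0.16 to 0.039 for Kdm4a, −0.035 to 0.21 for Kdm5a (1452360_a_at) and −0.13 to 0.25 for Kdm6b. For triCH1 against control in normoxia, it was −0.16 to 0.064 for Jmjd6, −0.10 to 0.041 for Kdm3b, −0.097 to 0.10 for Kdm4a, −0.11 to 0.11 for Kdm4b, −0.27 to 0.13 for Kdm4c and −0.062 to 0.28 for Kdm5a (1452360_a_at). For triCH1 against control in hypoxia, it was −0.11 to 0.29 for Kdm5a, −0.23 to 0.12 for Kdm5a (1452360_a_at), −0.60 to 0.12 for Kdm5b (1427142_s_at) and −0.34 to 0.46 for Kdm6b.

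With ACGTG alone the promoter match covered 3 of 6 genes in place of 5. A window of 300 bases, chosen after seeing the data, held a match in 43.8% of all promoters and in 8 of 12 member promoters, again 5 of 6 genes. With 3 arrays per group the differences in response had standard errors of 0.23 to 0.33 for the called members.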

Other observations

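JmjC genes on the Y chromosome split the lines across both line types. The H3K4 demethylase Kdm5d read 147.1 to 304.6 on the 6 arrays of lines triCH1flox2_1, flox1 and flox2_2, and 1.4 to 24.1 on the arrays of triCH1flox1, triCH1flox2_2 and flox2_1. Uty, the Y-linked relative of the H3K27 demethylase Kdm6a, read 131.2 to 314.7 and 4.9 to 47.3 on the same arrays. Both arrays of every line fell on the same side for both genes. The sex-linked transcripts Eif2s3y and Xist also ranged widely, from 27.9 to 1143.4 and 4.2 to 897.8 in triCH1 normoxia. In control normoxia they ran from 6.2 to 1118.5 and 27.6 to 1732.9. The side with high Kdm5d and Uty held more control than triCH1 lines, so the line types are not balanced in this split. Its part in the comparisons of line types was not tested. Kdm5d and Uty were singled out after their values were seen, and no test was made of the split.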
